A study of Oryza sativa with 3 samples.

Results

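Catalases and superoxide dismutases of rice roots were followed on 3 two-channel Agilent arrays that set vanadate-exposed roots against water-exposed roots. The set held 9 loci, chosen by locus ID: the catalases CatA, CatB and CatC, 3 Cu/Zn superoxide dismutases (SODs), 1 Mn SOD and 2 Fe SODs. The array carried 36 probes for these loci, of 42418 gene probes for 29690 numbered loci in all. The enzyme names given to the loci come from background knowledge, with no annotation of these IDs at hand. Both groups were roots of rice (Oryza sativa, cultivar TN67) from 6-day-old seedlings raised in darkness. One group was exposed to 1 mM vanadate, an oxyanion that resembles phosphate, and was labelled with Cy5, and the other was exposed to water and labelled with Cy3. Each of the 3 biological replicates was 1 array, on RNA pooled from 1 h and 3 h of exposure, so the times cannot be separated. The series asked which root transcripts respond to vanadium. The dyes were exchanged on 0 arrays, so a dye effect of a probe and an effect of vanadate cannot be told apart.

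SODs convert superoxide, a reactive form of oxygen, to oxygen and hydrogen peroxide, and they are named for the metal at the active site. In plants the Cu/Zn enzymes work mainly in the cytosol and plastids, the Mn enzyme in mitochondria and the Fe enzymes mainly in plastids. Catalases are haem enzymes of peroxisomes that split hydrogen peroxide to water and oxygen, and in rice CatC is known from photorespiration in green leaves.

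Values are log2 ratios of vanadate over water, normalized within each array. A probe entered the test if it was unflagged throughout and if, on 2 or more arrays, 1 or both channels were well above background. It was called when the adjusted p from limma, over all 31160 tested probes, was under 0.05. By this measure 31 of the 36 probes and 8 of the 9 loci were tested. CatC had 4 probes and none was well above background in any channel of any array. Of the 31 probes, 8 were called lower and 2 higher, and 21 were not called, where 20.8% of all tested probes were called lower and 28.4% higher. The probes of a locus measure the same RNA and are not replicates, and cross-hybridisation between related members was not tested. Counted by the brightest tested probe of each locus, CatA (Os02g0115700) and an Fe SOD (Os06g0115400) were lower, the other Fe SOD (Os06g0143000) was higher, and 5 loci were not called. The same count over all 22026 tested loci gave 20.7% lower and 29.1% higher. The 2 of 8 members that fell were near that share, and the 1 of 8 that rose was a smaller share than among all loci, a difference that was not tested. The median log2 ratio was -0.12 over the 8 members and 0.022 over all tested loci.

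**Figure D1:**
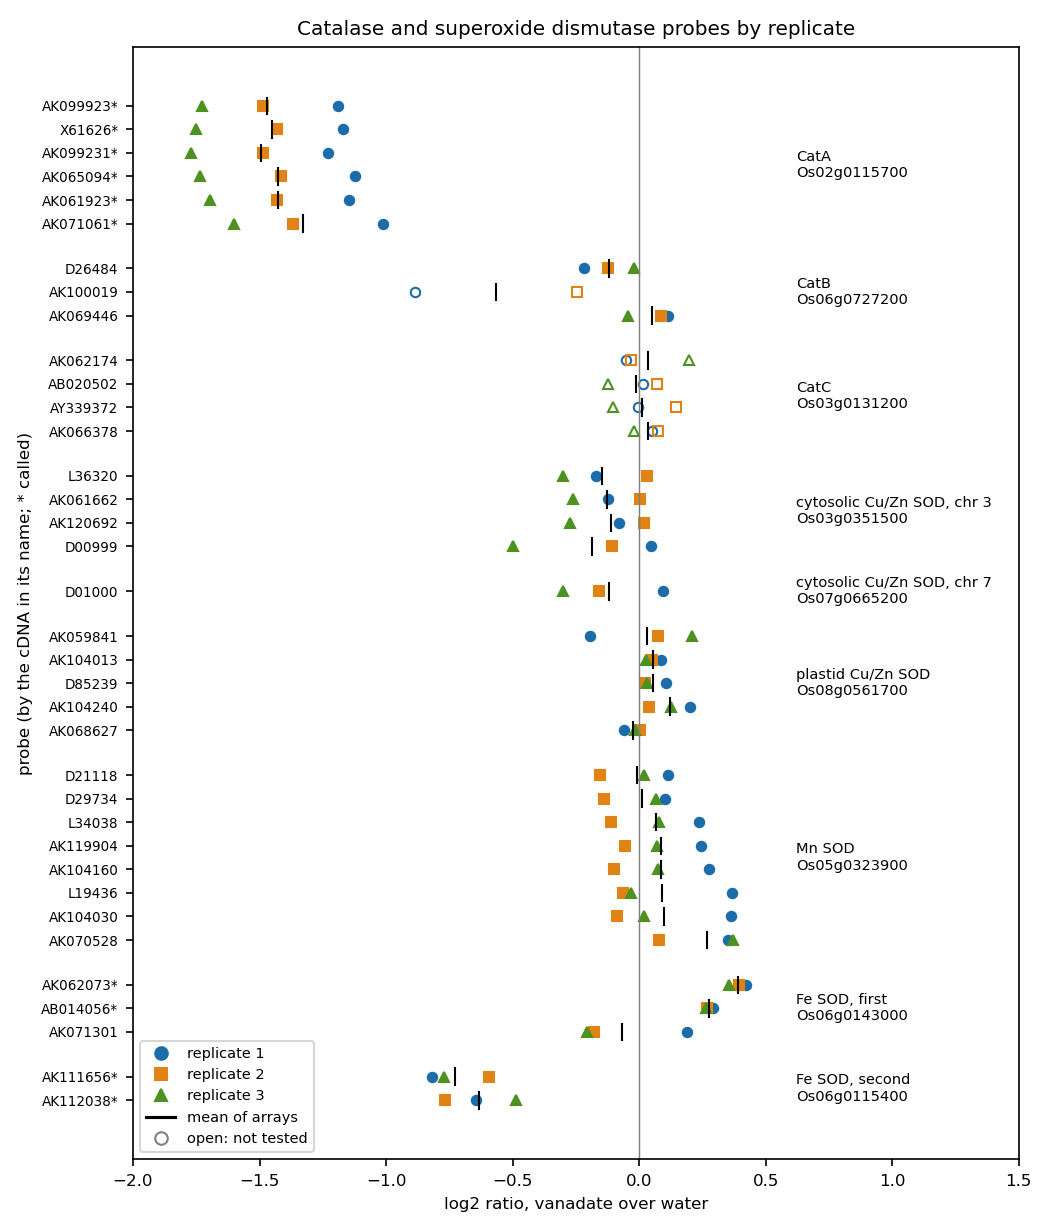
Log2 ratio of vanadate over water (x axis) for each of the 36 probes (y axis, named by the cDNA in the probe's name), with 1 point per replicate array and a bar at the mean. The 6 CatA probes lie between -1.77 and -1.01 on every array, the 2 probes of Os06g0115400 lie between -0.82 and -0.49, and most other points lie near 0.

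By the file headers, 1 slide and 1 scan day served replicates 1 and 2, and replicate 3 had its own slide and scan day. Log2 ratios over tested probes correlated between arrays at Pearson's r of 0.89 to 0.93, across probes, which are not independent. In whole roots, fewer cells of a type and less RNA per cell cannot be told apart. All 4 root marker loci gave clear signal in water and in vanadate on every array. Of these, 3 were called lower and 1, RCc3 (Os02g0662000), higher on its brighter probe, while its other probe was called lower. Their summed log2 level was 48.7 to 49.5 in water and 44.5 to 47.1 in vanadate. Their part in the results below was not tested. Of 4 green leaf marker loci 0 were called, and replicate 3 stood apart from the other arrays in them. Their summed log2 level was 29.5, 29.0 and 35.3 in water and 29.8, 29.7 and 30.7 in vanadate on replicates 1, 2 and 3. On replicate 3 the log2 ratios of 3 of the 4 were -1.71, -1.70 and -1.04, where on replicates 1 and 2 they lay between -0.06 and 0.78. Replicate 3 was also the array with the largest CatA fall, and without it the CatA ratio was -1.34.

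CatA transcript fell under vanadate. Among the 8 tested members its log2 ratio was the lowest in the reported processing, but not with Agilent's processed signals, where Os06g0115400 was at -1.55 and CatA at -1.49. On its brightest probe, AK099923, the log2 channel level was 15.15, 15.52 and 15.18 in water and 13.96, 14.03 and 13.45 in vanadate on replicates 1, 2 and 3. Water was the higher channel on every array, and the lowest water level lay above the highest vanadate level. The log2 ratios were -1.19, -1.49 and -1.73, with a mean of -1.47 ± 0.27 (SD, n = 3). This is 2.77-fold lower, with a 95% interval of -1.75 to -1.19 on the log2 scale and an adjusted p of 1.61e-04 in limma. The fall was far larger than the spread between arrays.

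Each of the 6 CatA probes was called lower, at 2.51-fold to 2.82-fold by probe. With channels as separate samples the dimmest, AK071061, missed the threshold (adjusted p = 0.0845 in limma), and the other 5 were called. On all 6 the smallest fall was on replicate 1, with ratios from -1.23 to -1.01, and the largest on replicate 3, with ratios from -1.77 to -1.60. The probe means had an SD of 0.058, below the SD of 0.27 between arrays on the brightest probe, so the probes of CatA differed less than the arrays did. Within the slide of replicates 1 and 2 the ratio of the brightest probe was -1.34 (adjusted p = 3.12e-05 in limma). With slide as a block it was -1.47, but the error of that fit takes no spread from replicate 3 or between slides. Under the other alternatives the adjusted p in limma ran from 2.62e-05 with median centring to 0.00264 with the processed signals or the authors' table. Replicate 3, the 1 array of its slide, was at -1.73. Of the 22026 tested loci, 76 had a lower mean log2 ratio than CatA, or 0.345%.

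**Figure D2:**
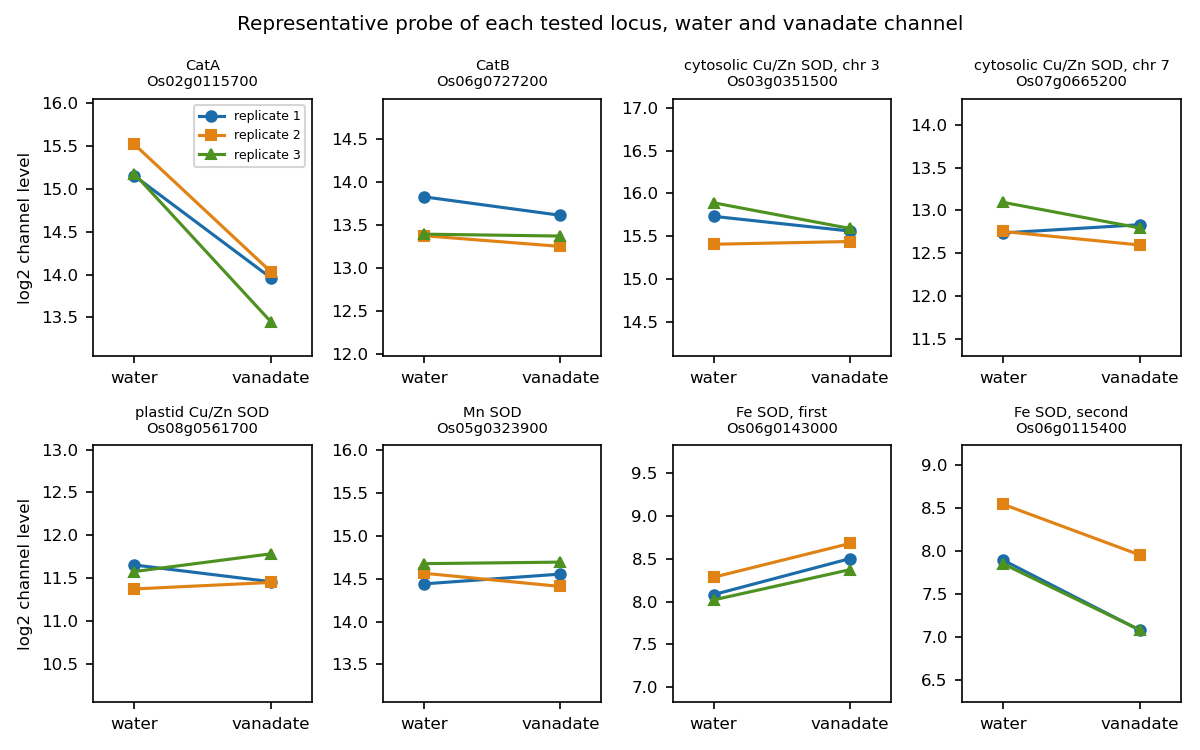
Normalized log2 level in the water and vanadate channels (y axis) of the brightest tested probe of each of the 8 tested loci, with 1 line per replicate array and the same y span in every panel. Every line falls for CatA and for Os06g0115400 and rises for Os06g0143000. The lines of the other 5 loci change by -0.30 to 0.21. Levels of different panels are different probes and are not comparable.

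CatB (Os06g0727200) was not called. Its brightest probe, D26484, had log2 ratios of -0.22, -0.12 and -0.02, with a mean of -0.12 ± 0.10 (SD, n = 3) and an adjusted p of 0.258 in limma. Its 95% interval of -0.32 to 0.08 lay wholly above the CatA interval. The probe AK069446 had ratios of 0.12, 0.09 and -0.04 and was not called either (adjusted p = 0.613 in limma). Another probe, AK100019, was not tested because its spot on replicate 3 was flagged as an outlier. Its ratios on replicates 1 and 2 were -0.88 and -0.24, so on replicate 1 it stood apart from the other CatB probes. With the flagged spot, at -0.03, kept, its mean was -0.39 and it was not called.

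The CatA ratio minus the CatB ratio was -0.98, -1.36 and -1.71 on replicates 1, 2 and 3, with a mean of -1.35 ± 0.37 (SD, n = 3). It had the same sign on 3 of 3 arrays. An exact two-sided sign-flip permutation test gave p = 0.25, the smallest that 3 arrays allow, and 0.375 adjusted over 3 pairs of members compared.

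CatC (Os03g0131200) gave no measurable signal in these dark-grown roots. Across its 4 probes the uncorrected median signal in the water channel was 171.5 to 185.5 on replicate 1, 156.5 to 176 on replicate 2 and 103.5 to 106.5 on replicate 3. Negative control spots of the same channel had medians of 160, 154.5 and 89. In the vanadate channel the probes read 70 to 85, 68 to 77 and 63.5 to 71, against 67, 68 and 62 for the negative control spots. The probes therefore sat close to the level of spots without a target in both channels, and no fold is given.

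None of the Cu/Zn SOD probes was called, in the cytosolic or the plastid enzymes. The cytosolic enzyme on chromosome 3 (Os03g0351500) had ratios of -0.17, 0.03 and -0.30 on its brightest probe, L36320, with a mean of -0.15 ± 0.17 (SD, n = 3). Its 95% interval was -0.37 to 0.08 and its adjusted p was 0.23 in limma. All 4 of its probes had means between -0.19 and -0.11, and on replicate 3 all 4 were below 0, from -0.50 to -0.26. The cytosolic enzyme on chromosome 7 (Os07g0665200) had 1 probe, D01000, with ratios of 0.10, -0.16 and -0.30 and a mean of -0.12 ± 0.20 (SD, n = 3, adjusted p = 0.349 in limma). Arrays disagreed in sign for both loci on these probes. The ratios of both loci differed by -0.027 ± 0.23 (SD, n = 3, chromosome 3 minus chromosome 7) between these probes, with p = 0.75 in the exact two-sided sign-flip permutation test and 0.75 adjusted over the 3 pairs.

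The plastid Cu/Zn SOD (Os08g0561700) had 5 tested probes with means from -0.03 to 0.12. Its brightest probe, AK059841, had ratios of -0.20, 0.08 and 0.21, the widest spread of the 5, with a mean of 0.03 ± 0.21 (SD, n = 3). Its adjusted p was 0.823 in limma. The other 4 probes lay between -0.06 and 0.20 on every array, so the probes placed this transcript near 0.

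The mitochondrial Mn SOD (Os05g0323900) was the member with the most probes, and 0 of 8 were called. On its brightest probe, D21118, the ratios were 0.11, -0.15 and 0.02, with a mean of -0.01 ± 0.14 (SD, n = 3), a 95% interval of -0.22 to 0.20 and an adjusted p of 0.949 in limma. Arrays differed in a shared way: all 8 probes were above 0 on replicate 1, from 0.10 to 0.37, and 7 of 8 were below 0 on replicate 2. The probe AK070528 stood highest, at 0.35, 0.08 and 0.37 with a mean of 0.27 ± 0.17 (SD, n = 3). Its adjusted p of 0.0518 in limma missed the threshold, and it was called higher under 4 of 13 alternatives.

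Over the 21 probes that were tested and not called, mean log2 ratios ran from -0.19 to 0.27. These were the 2 tested CatB probes, all probes of the Cu/Zn SODs and the Mn SOD, and 1 Fe SOD probe. The untested CatB probe AK100019 is not among them. In the reported processing every 95% interval of the 21 probes lay within -0.47 to 0.49, so changes beyond 0.721-fold or 1.40-fold lie outside them. With the processed signals the dim Fe SOD probe AK071301 had ratios of 0.49, -0.13 and -0.77, so these limits do not carry over to it there. Under median centring the SE in limma was larger on other probes too, for example 0.18 against 0.099 on D01000. The limits are therefore given for the reported processing only. The 95% intervals are read probe by probe and rest on 3 arrays.

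**Figure D3:**
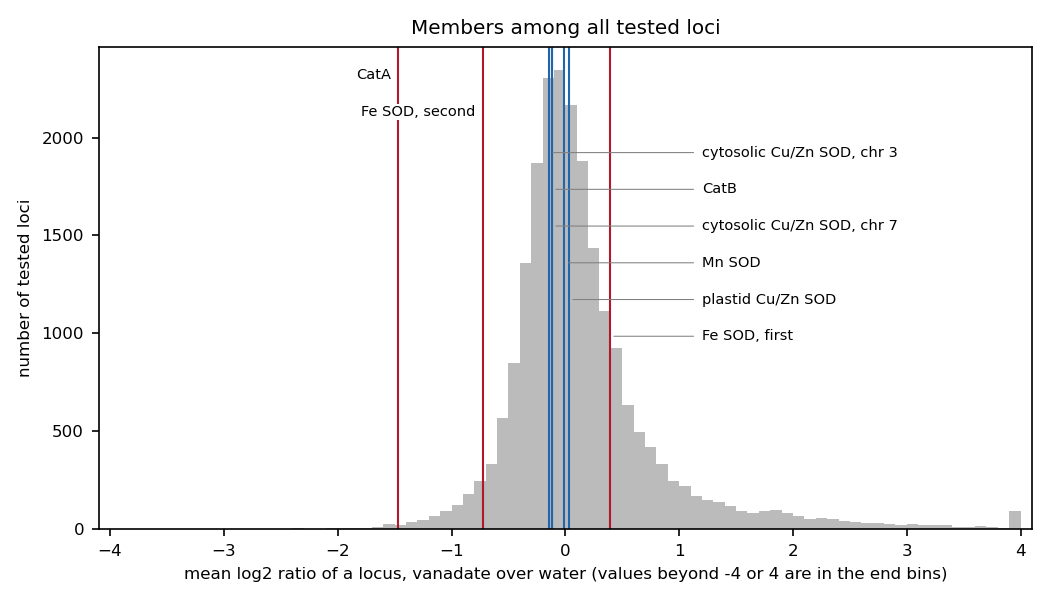
Number of tested loci (y axis) by mean log2 ratio of vanadate over water (x axis) for all 22026 tested loci, each by its brightest tested probe, with vertical lines at the 8 tested members. Red lines are called members and blue lines are not called. CatA at -1.47 lies in the far left tail, Os06g0115400 at -0.73 in the left shoulder, Os06g0143000 at 0.39 on the right side, and the other 5 lie within 0.15 of 0.

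Both Fe SODs were dim on these probes, and on the brightest probe of each they moved in opposite directions. The transcript of Os06g0115400 was lower under vanadate. Its brighter probe, AK111656, read 7.89, 8.54 and 7.85 in water and 7.08, 7.95 and 7.08 in vanadate as log2 channel levels on replicates 1, 2 and 3. Vanadate was the lower channel on each array, although the vanadate level of replicate 2 lay above the water levels of replicates 1 and 3. Its log2 ratios of -0.82, -0.59 and -0.77 had a mean of -0.73 ± 0.12 (SD, n = 3), or 1.65-fold lower (adjusted p = 8.57e-04 in limma). The other probe, AK112038, was called too, at -0.64, -0.77 and -0.49 with a mean of -0.63 ± 0.14 (SD, n = 3, adjusted p = 0.00175 in limma), and was well above background in vanadate on 2 of 3 arrays. With Agilent's processed signals the fall was larger on both probes, at -1.55 or 2.92-fold on AK111656 and at -1.53 on AK112038. The size of the fall therefore depended on the processing, and the reported one adds an offset of 50 to each corrected channel. The part of this offset in the gap was not tested. The call on AK111656 was lost when channels were treated as separate samples (adjusted p = 0.124 in limma), while AK112038 stayed called there (adjusted p = 0.0107 in limma). Within the slide of replicates 1 and 2 the ratio of AK111656 was -0.70 (adjusted p = 9.99e-04 in limma), and with slide as a block it was -0.73.

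The transcript of Os06g0143000 was higher by a small amount on 2 of its 3 probes. The brightest, AK062073, read 8.08, 8.28 and 8.02 in water and 8.50, 8.68 and 8.37 in vanadate, and all vanadate levels lay above all water levels. Its log2 ratios of 0.42, 0.39 and 0.35 had a mean of 0.39 ± 0.03 (SD, n = 3), or 1.31-fold higher (adjusted p = 0.0068 in limma). The probe AB014056 had ratios of 0.29, 0.27 and 0.27 and a mean of 0.27 ± 0.01 (SD, n = 3, adjusted p = 0.024 in limma). The dimmest probe, AK071301, was well above background in water on 1 of 3 arrays, had ratios of 0.19, -0.18 and -0.21, and was not called (adjusted p = 0.622 in limma).

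This rise depended on probe and processing. The call on AK062073 was lost under median centring (0.32, adjusted p = 0.127 in limma) and with channels as separate samples (adjusted p = 0.0892 in limma), and averaged over 3 probes the locus was at 0.20 (adjusted p = 0.0705 in limma). The call on AB014056 was lost under 7 of 13 alternatives. Without replicate 1, 2 or 3 it was at 0.27, 0.28 and 0.28 with adjusted p of 0.0709, 0.139 and 0.0513 in limma. It was at 0.22 under median centring (adjusted p = 0.296), at 0.18 with the processed signals and with the authors' table (adjusted p = 0.116), and it missed the threshold with channels as separate samples (adjusted p = 0.2). Within the slide of replicates 1 and 2 the ratio of AK062073 was 0.41 (adjusted p = 0.0112 in limma), and with slide as a block it was 0.39. The ratio of Os06g0115400 minus that of Os06g0143000 was -1.24, -0.99 and -1.12 on the 3 arrays, with a mean of -1.12 ± 0.13 (SD, n = 3). The exact two-sided sign-flip permutation test gave p = 0.25, the smallest possible with 3 arrays, and 0.375 adjusted over the 3 pairs.

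**Figure D4:**
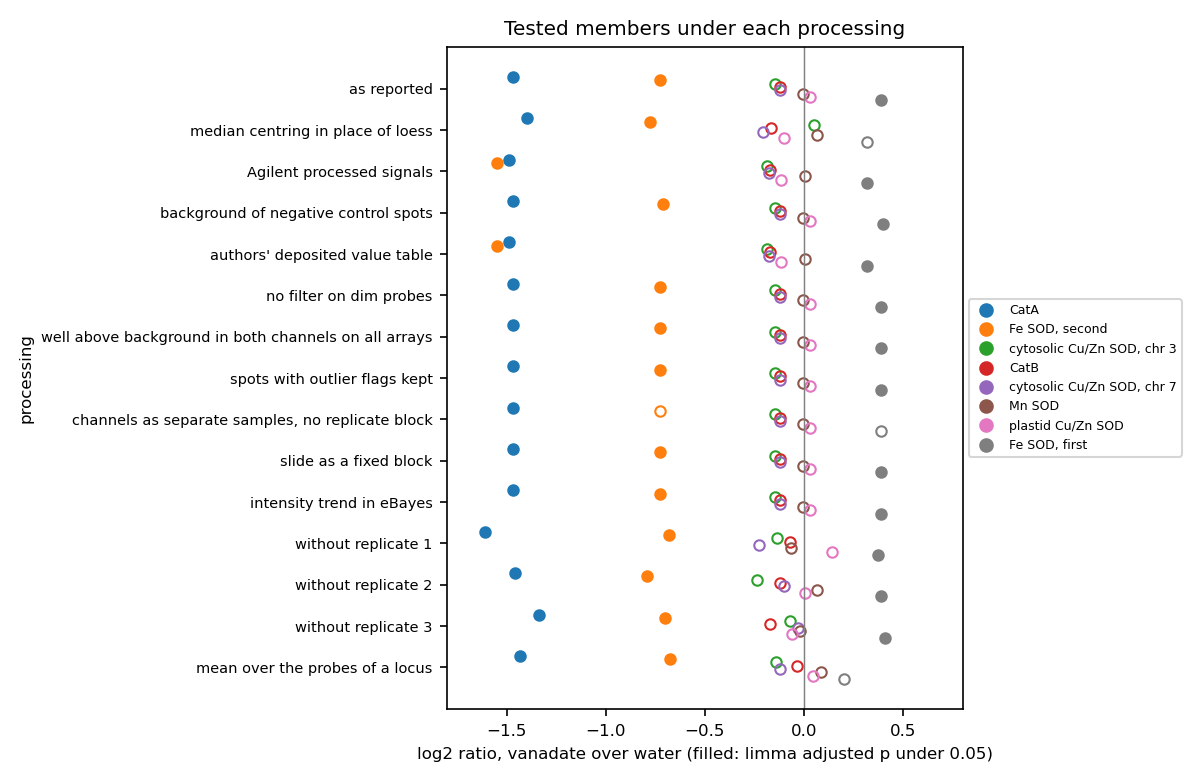
Log2 ratio of vanadate over water (x axis) for each of the 8 tested members under the reported processing and 14 alternatives (y axis), by the brightest probe except in the alternative that averages the probes of a locus, filled where the limma adjusted p was under 0.05. CatA stays filled and between -1.61 and -1.34 throughout, Os06g0115400 moves to -1.55 with the processed signals and the authors' table, and Os06g0143000 is open under 3 alternatives (in the legend Os06g0143000 is the first Fe SOD and Os06g0115400 the second).

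Enzymes around these members were taken from lists of 27 loci, of which 24 were tested, 6 rose, 3 fell and 15 were not called. Their median log2 ratio was 0.061, and 29.1% of all tested loci rose and 20.7% fell. The copper chaperone for SOD (Os04g0573200), which loads copper into the Cu/Zn enzymes, was not called on its brightest probe, with ratios of 0.27, 0.20 and 0.12 (adjusted p = 0.0842 in limma), while 2 of its 4 probes were called higher. The Cu/Zn SOD-like locus Os03g0219200 was at -0.03, -0.07 and -0.06 and was not called (adjusted p = 0.582 in limma). Neither locus moved beyond 0.27 on any array on these probes, and both are named after their values were seen.

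Glycolate oxidases produce hydrogen peroxide in peroxisomes, where catalases remove it. Of 4 loci 2 were tested, and both were called. Os07g0152900 rose, with ratios of 1.39, 0.64 and 1.06 and a mean of 1.03 ± 0.14 (SE, adjusted p = 0.00173 in limma). Os07g0616500 fell, with ratios of -1.17, -0.63 and -0.44 and a mean of -0.75 ± 0.14 (SE, adjusted p = 0.00671 in limma), which missed the threshold once channels were separate samples (adjusted p = 0.22).

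Ascorbate peroxidases and glutathione peroxidases also reduce hydrogen peroxide or lipid peroxides. Of 8 ascorbate peroxidase loci 7 were tested, 1 rose and 1 fell, both by small amounts. Os04g0434800 had a ratio of 0.32 ± 0.08 (SE) with an adjusted p of 0.0165 in limma. Os07g0694700 had a ratio of -0.33 ± 0.09 (SE) with an adjusted p of 0.0234 in limma. Both calls were lost without replicate 1, at 0.31 and -0.25 (adjusted p = 0.053 and 0.0925), and without replicate 2, at 0.28 and -0.34 (adjusted p = 0.132 and 0.0945). They were also lost under median centring, at 0.21 and -0.12, and in all under 6 and 5 of 14 alternatives. Of 5 glutathione peroxidase loci 2 rose and 0 fell, and Os04g0556300 had ratios of 1.12, 1.00 and 0.64 with a mean of 0.92 ± 0.11 (SE, adjusted p = 9.82e-04 in limma). The other that rose, Os02g0664000, is named after its values were seen and was at 0.52 ± 0.08 (SE).

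Peroxiredoxins are thiol peroxidases, and of 8 tested loci 2 rose, 1 fell and 5 were not called. Os07g0638300 had ratios of 0.93, 1.15 and 2.76 and a mean of 1.62 ± 0.33 (SE, adjusted p = 0.00836 in limma), so replicate 3 was far above the other arrays, and without it the mean was 1.04. Its neighbour by locus number, Os07g0638400, named after its values were seen, was at 1.07, 1.56 and 1.75. Os02g0192700 fell, with a ratio of -0.30 ± 0.09 (SE) and an adjusted p of 0.0369 in limma. This call was lost when replicate 1 was left out, at -0.26 with an adjusted p of 0.135, when replicate 2 was, at -0.25 with an adjusted p of 0.206, and with channels as separate samples (adjusted p = 0.191).

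**Figure D5:**
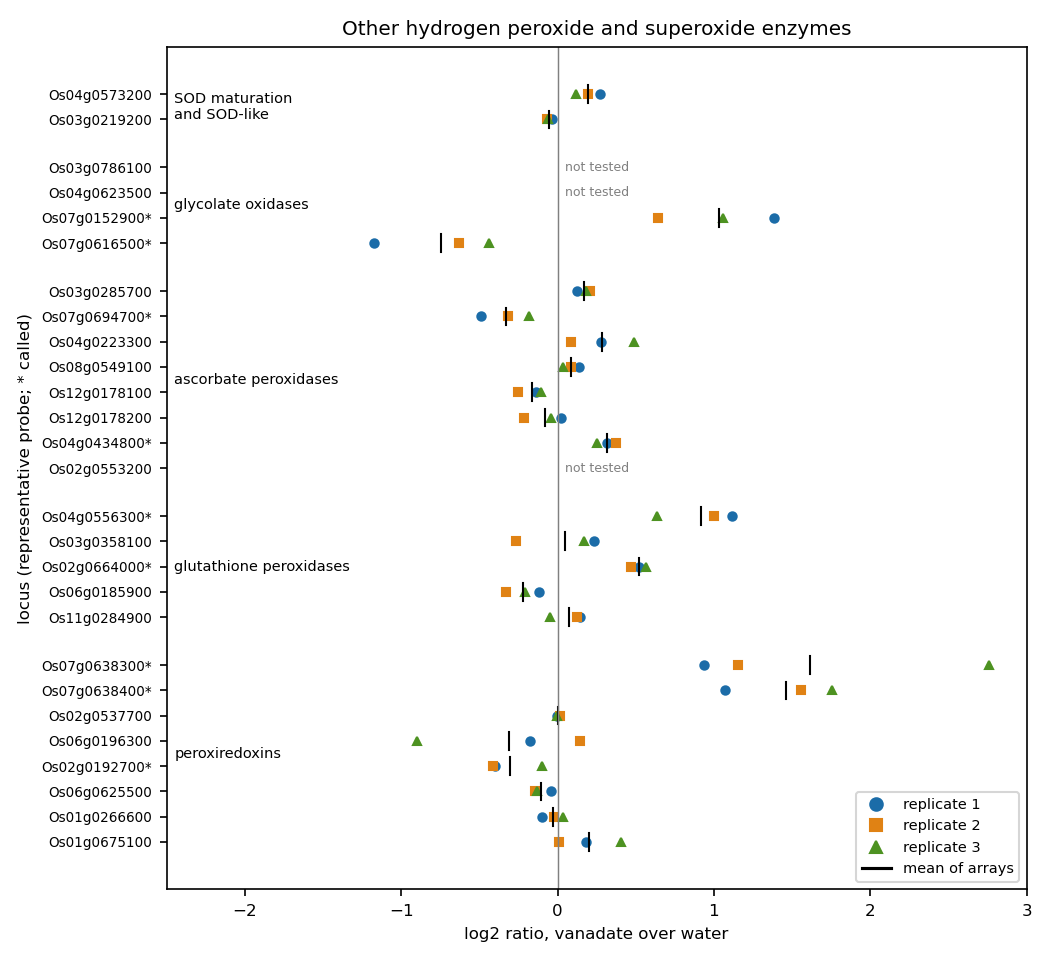
Log2 ratio of vanadate over water (x axis) for the brightest tested probe of each of the 27 listed loci (y axis), with 1 point per replicate array and a bar at the mean. An asterisk marks the 9 called loci. The 2 peroxiredoxins Os07g0638300 and Os07g0638400 reach the highest means, at 1.62 and 1.46, and 3 loci were not tested.

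Among 22018 other tested loci, those whose 3 log2 ratios were nearest to CatA were Os05g0593900 and Os12g0510900. Their root mean square differences from CatA over the 3 arrays were 0.077 and 0.079. Os05g0593900 had ratios of -1.08, -1.47 and -1.66, and Os12g0510900 of -1.25, -1.38 and -1.66. With 3 arrays such likeness is a description of these values.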

How the data were processed

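Per the file headers, the authors extracted spot intensity values with Agilent Feature Extraction (version 10.7.1.1). Each channel has an uncorrected median signal and local background, and a processed signal with background subtracted and dyes normalized. The log2 values that the authors deposited as a table equal the log2 ratio of the processed signals, red over green, to within 0.001 for at least 99.1% of matched probes on each array. Their direction is therefore vanadate over water, without centring: the medians on the 3 arrays were -0.19, -0.21 and -0.05.

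Background was corrected by normexp (offset 50) on median signals and ratios were normalized by loess within arrays in limma 3.58.1 under R 4.3.3. Control spots had weight 0 and were removed, as were 129 to 958 of 43144 gene spots per array with outlier flags. Ratios were tested against 0 (lmFit, eBayes), and p-values were adjusted over 31160 probes by Benjamini-Hochberg. Channel levels are log2 values after loess and Aquantile. The script was tested on simulated data. No spot was saturated, and 69.0% to 75.3% of gene spots in water and 73.7% to 76.1% in vanadate were well above background. The number of arrays limits the precision.

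Members and lists were chosen with earlier results of these data known. Named genes were all 9 members, the called locus of largest ratio per direction in each list and the 2 loci nearest to the member of largest ratio. Others are marked as named after their values were seen or are marker loci. The tested probe with the highest mean intensity stands for a locus. The reference table matched 0 of the 9 locus IDs, so names are background knowledge. The labels call the arrays biological replicates and do not say whether seedlings came from separate dishes. The p-values therefore measure the spread between these arrays, which eBayes moderates toward that of all tested probes. For AB014056, as an example, the SD between arrays was 0.013 and the SE in limma was 0.075.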

Additional observations from a re-analysis of the deposited data

How the results depend on the processing

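The counts of called members changed under fewer alternatives for falls than for rises. Of the member probes, 2 were called higher as reported, 0 under median centring and with channels as separate samples, which is the fit with no replicate block, and 1 with the processed signals and with the authors' table. It was 3 with the background of negative control spots, with signal required in both channels on all arrays, with slide as a block and with an intensity trend, where the Mn SOD probe AK070528 was called too. The number of member loci called higher was 1 as reported and 0 under median centring, with channels as separate samples and as the mean over the probes of a locus. Member probes called lower were 8 as reported, 7 with signal required in both channels on all arrays and 6 with channels as separate samples. Member loci called lower by their brightest probe were 2 as reported and 1 with channels as separate samples. Of the listed loci, 3 fell as reported, 5 with the processed signals and with the authors' table, and 0 with channels as separate samples. Leaving out each replicate in turn gave 1 member probe higher each time and 1 to 3 listed loci lower.

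Members that were not called changed sign in places, and by their brightest probe or the mean over their probes they stayed uncalled under every alternative. Under median centring the brightest probes of Os03g0351500, Os08g0561700 and Os05g0323900 were at 0.051, -0.10 and 0.064. With the processed signals and with the authors' table Os08g0561700 was at -0.12 and Os05g0323900 at 0.0039. As the mean over its probes Os05g0323900 was at 0.087. Leaving out each replicate in turn, Os05g0323900 ranged from -0.068 to 0.066 and Os08g0561700 from -0.059 to 0.14.

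The processed signals, like the authors' table, moved the median of all tested probes from 0.016 to -0.12, and 41.4% of calls were rises against 57.7% as reported. Relative to that median CatA was at -1.37 and Os06g0115400 at -1.42. Low signal over background limits the Fe SOD values and leaves CatC without a measurement.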
